A study of Mus musculus with 2 samples.

Results

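The MHC class I genes described here were the 6 genes B2m, H2-K1, H2-D1, H2-Q2, H2-T22 and H2-T23, matched by symbol, of 28692 genes listed in the count tables of a single-cell study of the mouse lateral hypothalamic area. They were selected on their UMI levels across cell types in these same data, so these levels are given as a description, with counting intervals and without tests. Whole-transcriptome single-cell libraries (10x Chromium v2 chemistry, polyA RNA, read at the 3′ end) were made from C57BL/6 mice of postnatal day 30. The library labelled male pooled 3 animals and the library labelled female pooled 2, all 5 of them littermates. There was no treatment, transgene or mutant, and the groups compared are cell classes within each library.

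Class I molecules display short peptides from inside the cell to CD8 T cells and to natural killer cells. Each is a heavy chain bound to the light chain beta-2 microglobulin, loaded in the endoplasmic reticulum with peptides that the proteasome makes and the TAP transporter imports. In the mouse, H2-K1 and H2-D1 encode classical heavy chains, which present varied peptides on most cells and are induced by interferon. H2-T22, H2-T23 and H2-Q2 belong to the less polymorphic non-classical genes of the T and Q regions. H2-T23 encodes Qa-1, a ligand of the NKG2 receptors of natural killer cells, and the protein of H2-T22 is bound by some gamma-delta T cells. In the brain, class I is known for low levels in resting neurons, for higher levels in endothelium and microglia, and for roles at developing synapses.

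The genes lie at chr2:122147686-122153083 (B2m, plus strand), chr17:33996017-34000347 (H2-K1, minus strand), chr17:35262730-35267499 (H2-D1, plus strand), chr17:35342242-35346762 (H2-Q2, plus strand), chr17:36037128-36042747 (H2-T22, minus strand) and chr17:36029773-36032855 (H2-T23, minus strand) in GRCm38. All 6 are protein-coding in the GENCODE annotation. H2-T22 and H2-T23 overlap the antisense gene A930015D03Rik and B2m lies inside Patl2 on the other strand. Class I genes are near-copies of each other, so their 3′ counts can be split between relatives. Of all 50-base stretches in the last 500 bases of their transcripts, 58.9% of those of H2-T22 also occur in H2-T10, and 16.0% of those of H2-Q2 occur in another gene, mostly H2-Q1. That share was 38.1% for H2-T23, 9.60% for H2-K1, 8.92% for H2-D1 and 0 for B2m, so H2-T22 is the least certain of the levels below.

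The promoters of H2-K1, H2-D1 and H2-Q2 are shown because the first 2 genes ranked high in endothelial-like and microglia-like cells, where H2-Q2 had no UMI. Each is the RefSeq window (GRCm38.p6) from 250 bases before to 50 bases after the gene's start, 5′ to 3′ on the gene's own strand. It runs over chr17:34000298-34000597 for H2-K1, the first of 2 windows listed, over chr17:35262844-35263143 for H2-D1 and over chr17:35342057-35342356 for H2-Q2. Capitals mark matches, on either strand, to 3 motifs: GGGATTCCC, the core of the enhancer A sequence that NF-kappa-B proteins are known to bind, and the interferon response patterns TTTCNNTTT and GTTTCNNTT.
H2-K1: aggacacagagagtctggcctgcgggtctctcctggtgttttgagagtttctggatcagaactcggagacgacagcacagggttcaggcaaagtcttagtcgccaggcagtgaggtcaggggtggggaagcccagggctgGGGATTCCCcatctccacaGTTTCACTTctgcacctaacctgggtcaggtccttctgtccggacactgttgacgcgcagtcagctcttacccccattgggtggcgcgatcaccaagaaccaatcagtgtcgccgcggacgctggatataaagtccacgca
H2-D1: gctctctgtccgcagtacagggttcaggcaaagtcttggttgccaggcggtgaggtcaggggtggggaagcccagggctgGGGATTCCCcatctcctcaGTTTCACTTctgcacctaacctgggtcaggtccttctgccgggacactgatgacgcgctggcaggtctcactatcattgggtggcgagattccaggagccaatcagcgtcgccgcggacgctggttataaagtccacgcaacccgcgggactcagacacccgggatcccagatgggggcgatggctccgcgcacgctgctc
H2-Q2: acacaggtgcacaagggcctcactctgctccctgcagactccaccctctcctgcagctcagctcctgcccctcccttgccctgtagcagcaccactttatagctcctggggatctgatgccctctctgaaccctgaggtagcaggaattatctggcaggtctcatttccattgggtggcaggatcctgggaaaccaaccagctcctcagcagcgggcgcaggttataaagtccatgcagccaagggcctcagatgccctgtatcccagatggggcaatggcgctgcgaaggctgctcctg
The H2-K1 and H2-D1 windows each held 1 GGGATTCCC and, downstream of it, 1 GTTTCNNTT. Counted from the start of the gene, these began at −110 and −91 in H2-K1 and at −170 and −151 in H2-D1, the same distance apart. GTTTCNNTT was listed as the H2-K1 form of the interferon response element, so its match in H2-K1 was fixed in advance and is no finding. The H2-Q2 window held none of the 3 motifs, which says only that these letters are not in this window. Among 27025 promoter windows of the same length, 100 (0.370%) held GGGATTCCC, 1572 (5.82%) held GTTTCNNTT and 2891 (10.7%) held TTTCNNTTT, and the last 2 patterns can overlap. All 6 genes had a window. TTTCNNTTT was found in those of B2m, H2-T22 and H2-T23, and not in those of H2-K1, H2-D1 and H2-Q2. GTTTCNNTT was also found in that of H2-T22, overlapping TTTCNNTTT. Aligned end to end, 71.3% of the window was identical between H2-K1 and H2-D1, 62.3% between H2-D1 and H2-Q2 and 47.7% between H2-K1 and H2-Q2. The last was no more than that of B2m with H2-D1, at 52.0%. The H2-K1 window is offset from the others, however. On the gene's own strand, TATAAA began at 36 in it, against −26 in H2-D1 and −27 in H2-Q2. End-to-end values can thus understate the likeness of H2-K1 to both. The H2-K1 and H2-D1 windows matched at 214 of the 239 bases aligned without a gap.

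The library labelled male held 3439 barcodes with 23151801 UMIs and the library labelled female 3793 barcodes with 27437142 UMIs, of which 3181 and 3515 cells passed the filters; 18 barcode sequences occurred in both. The labels did not match the sex-linked genes, since Xist had 20641 UMIs in the library labelled male and 30 in the other one and Y-linked genes had 0 and 7618 UMIs. The libraries are therefore called male-labelled and female-labelled below, and no difference between them is read as one of sex. Cells were clustered without the class I genes, their pathway genes or other H2 genes, and clusters were named from marker genes as neuron-like (2039 cells in the male-labelled library, 2255 in the female-labelled library), endothelial-like (75 and 64), microglia-like (68 and 40), astrocyte-like (118 and 185) and mature oligodendrocyte-like (552 and 539), with smaller classes beside them. Each class carried its own markers, but some cells were mixed. In the female-labelled library, 10 of the 40 microglia-like cells had more neuron than microglia marker UMIs, against 1 of 68 in the male-labelled library, and neuron markers summed to 11727 and 563 UMIs per 1000000 (CPM) there. In the male-labelled library, 4 of the 75 endothelial-like cells had more erythrocyte than endothelial marker UMIs, against 1 of 64 in the female-labelled library. Values without these cells stand beside the results they touch. Values below are given for the male-labelled library first and the female-labelled library second, in CPM of the UMIs summed over a class, with exact 95% intervals that cover counting error only.

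B2m, the light chain shared by all class I molecules, was highest in microglia-like cells, with 3134 and 1245 CPM, and next in endothelial-like cells, with 822 and 1088 CPM, against 27.8 and 22.96 CPM in neuron-like cells. The microglia-like level was 113 times the neuron-like level (99.5 to 128) in the male-labelled library and 54.2 times (46.2 to 63.5) in the female-labelled library. For endothelial-like cells the ratios were 29.5 (24.9 to 35.0) and 47.4 (40.3 to 55.5). Fibroblast-like cells followed with 333 and 445 CPM and astrocyte-like cells with 200 and 156 CPM, 7.18 times (5.37 to 9.44) and 6.80 times (5.30 to 8.62) the neuron-like level. Mature oligodendrocyte-like cells had 116 and 36.7 CPM and differed between the libraries beyond counting error, as microglia-like cells did. The ranges of the libraries did not overlap between microglia-like, endothelial-like, fibroblast-like and astrocyte-like cells in that order, whereas astrocyte-like and oligodendrocyte precursor-like cells (166 and 129 CPM) overlapped. Neuron-like cells were below every other class. A B2m UMI was found in 98.5% and 97.5% of microglia-like cells and 86.7% and 90.6% of endothelial-like cells, against 18.0% and 15.3% of neuron-like cells, although the median neuron-like cell had more UMIs (7709 and 8126) than the median microglia-like cell (2535.5 and 3016.5) or endothelial-like cell (2895 and 2759).

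H2-K1 separated neurons most sharply from the rest. It had 221 and 323 CPM in endothelial-like cells and 433 and 165 CPM in microglia-like cells, against 1.74 and 1.93 CPM in neuron-like cells. These are 127 times (79.7 to 207) and 167 times (111 to 254) the neuron-like level in endothelial-like cells, and 249 times (161 to 394) and 85.1 times (51.6 to 139) in microglia-like cells. In neuron-like cells the gene had 30 and 39 UMIs in all, in 1.23% and 1.73% of cells. The endothelial markers summed to 42.2 and 51.5 CPM in neuron-like cells, against 18674 and 17438 CPM in endothelial-like cells, and the part of free RNA in the neuronal H2-K1 counts was not tested. Glia lay between: astrocyte-like cells had 89.5 and 80.9 CPM, or 51.5 times (29.3 to 90.1) and 41.8 times (26.4 to 66.4) the neuron-like level. Newly formed oligodendrocyte-like cells had 101 and 47.8 CPM, whereas mature oligodendrocyte-like cells had 11.7 and 6.88 CPM and precursor-like cells 33.1 and 13.8 CPM. The 2 libraries' ranges for these 3 stages did not overlap, and H2-K1 was thus highest at the newly formed stage in both.

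H2-D1, the other classical heavy chain, had the same leading classes but a smaller gap to neurons. It reached 447 and 512 CPM in endothelial-like cells and 855 and 463 CPM in microglia-like cells, against 29.97 and 26.5 CPM in neuron-like cells. The endothelial-like level was 14.9 times (11.98 to 18.4) and 19.3 times (15.6 to 23.7) the neuron-like level, a much smaller ratio than that of H2-K1. In astrocyte-like cells H2-D1 had 55.1 and 40.5 CPM, 1.84 times (1.04 to 3.01) and 1.53 times (0.936 to 2.36) the neuron-like level, so the interval of the second includes equality. Mature oligodendrocyte-like cells had 36.0 CPM in the male-labelled library and 6.12 CPM in the female-labelled library. These are 1.20 times (0.946 to 1.51) and 0.230 times (0.131 to 0.378) the neuron-like level. In CPM, H2-D1 was thus below it in the female-labelled library and not separable from it in the male-labelled one. After TMM scaling the log2 ratio fitted over both libraries was 0.03 ± 0.36 SE. A UMI of H2-D1 was found in 20.01% and 18.7% of neuron-like cells. For each H2-D1 UMI, neuron-like cells held 0.058 and 0.0729 UMIs of H2-K1, endothelial-like cells held 0.495 and 0.631, and astrocyte-like cells held 1.63 and 2.00. The ratio of both classical heavy chains thus ran from a large excess of H2-D1 in neurons to an excess of H2-K1 in astrocyte-like cells. Neuron-like cells held 1.08 and 1.16 H2-D1 UMIs for each B2m UMI, against 0.544 and 0.470 in endothelial-like cells and 0.273 and 0.372 in microglia-like cells.

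The mixed cells bear on these levels mainly in microglia-like cells of the female-labelled library. Without them its B2m level was 1988 CPM, that of H2-K1 275 CPM and that of H2-D1 683 CPM, and in the male-labelled library they were 3114, 418 and 830 CPM. Perivascular macrophages share a lineage gene set with microglia, and 7 and 9 microglia-like cells held 2 or more of 7 of their markers. Without those cells B2m had 3232 and 920 CPM, H2-K1 381 and 54.9 CPM and H2-D1 850 and 151 CPM in microglia-like cells. In the female-labelled library all 3 genes were then lower in microglia-like than in endothelial-like cells, and the H2-K1 value rests on 8 UMIs. The order of these classes for B2m thus depended there on the cells left out. Microglia-like cells led at 1988 CPM without the cells rich in neuron markers, and did not lead at 920 CPM without those with macrophage markers. Cells rich in neuron markers were not taken out of the latter sums, and both exclusions were not combined. Endothelial-like levels without the cells rich in erythrocyte markers were 843 and 1101 CPM for B2m, 232 and 327 CPM for H2-K1 and 449 and 518 CPM for H2-D1.

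H2-T22 differed less between classes than the classical genes. It had 46.8 and 69.2 CPM in endothelial-like cells and 61.9 and 46.3 CPM in microglia-like cells, against 14.3 and 18.5 CPM in neuron-like cells. Astrocyte-like cells, with 13.8 and 21.2 CPM, overlapped neuron-like cells, and mature oligodendrocyte-like cells, with 8.80 and 8.79 CPM, were below them in CPM. For mature oligodendrocyte-like over neuron-like cells the log2 ratio fitted after TMM scaling was −0.27 ± 0.32 SE, so that order depended on the scaling. H2-T23 was highest in endothelial-like cells, with 59.6 and 46.1 CPM, against 6.43 and 4.56 CPM in neuron-like cells. That is 9.27 and 10.1 times the neuron-like level. Microglia-like cells had 22.5 and 10.3 CPM, from 4 and 2 UMIs, and oligodendrocyte precursor-like cells had none.

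**Figure D1:**
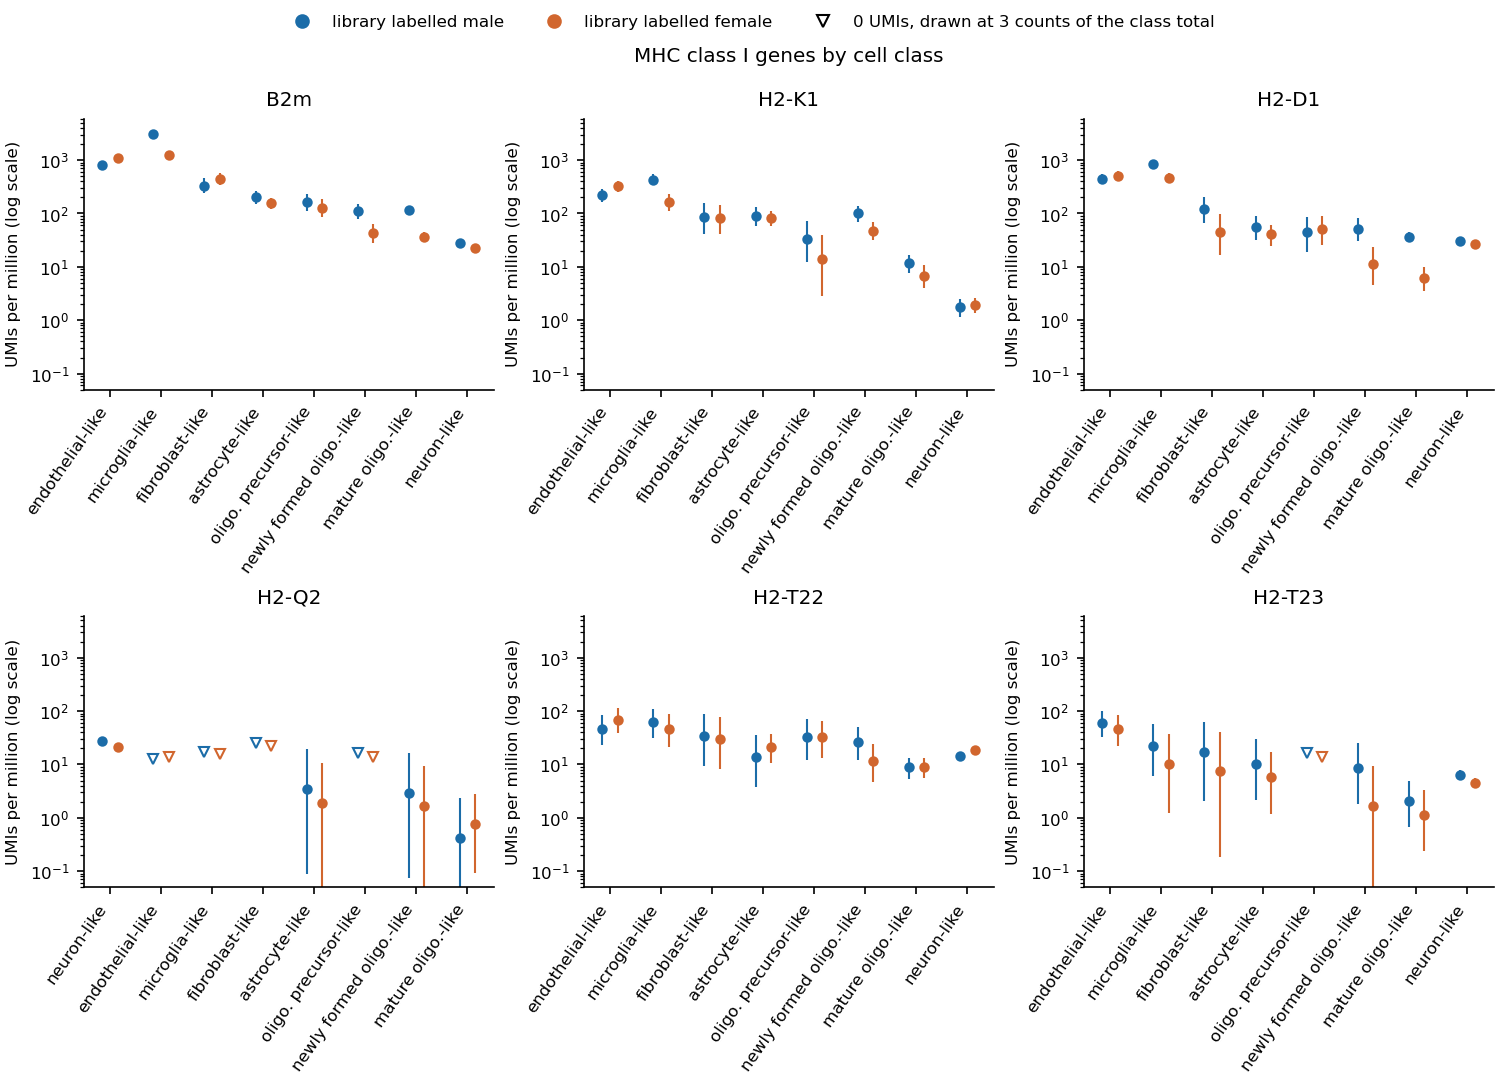
Level of each of the 6 genes by cell class, in CPM on a log axis, 1 point per library with its exact 95% Poisson interval (lower ends clipped at the axis); open triangles mark 0 UMIs and stand at 3 counts of the class total. B2m, H2-K1 and H2-D1 are highest in microglia-like and endothelial-like cells, while H2-Q2 stands at 27.8 and 21.5 CPM in neuron-like cells and has 0 UMIs in endothelial-like and microglia-like cells.

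H2-Q2 had the opposite order. It was found in neuron-like cells at 27.8 CPM (25.3 to 30.4) in the male-labelled library and 21.5 CPM (19.5 to 23.6) in the female-labelled library, and its 912 UMIs in neurons compare with 9 in all the other named and unnamed cells together. Neuron-like cells made up 64.1% of the cells kept and a larger part of the UMIs. They held 17250686 and 20162052 UMIs, of 23151801 and 27437142 over all barcodes, so these counts are no ratio of levels. Endothelial-like, microglia-like, fibroblast-like and oligodendrocyte precursor-like cells had 0 UMIs in both libraries. Taking 3 counts over both libraries as the limit that a count of 0 allows, the neuron-like level was at least 3.67-fold higher than the endothelial-like level and at least 3.02-fold higher than the microglia-like level. Those classes are small, so no larger difference was detectable at this depth. Among 1091 mature oligodendrocyte-like cells 3 UMIs were counted, and the neuron-like level was 40.6 times that level (13.9 to 197). Astrocyte-like cells had 2 UMIs, for a ratio of 9.86 (2.72 to 81.6), and 1 of these lay in a cell with more neuron or erythrocyte than astrocyte marker UMIs, of which there were 2 and 4 among the astrocyte-like cells. Newly formed oligodendrocyte-like cells had 2 UMIs, for a ratio of 11.6 (3.21 to 96.0). The 27 mural-like and 35 dividing cells had 1 UMI each as a class, for ratios of 1.91 (0.342 to 75.5) and 5.21 (0.932 to 206). Both of these intervals include equality, so neuron-like cells were not separable from these small classes. H2-Q2 and H2-D1 thus had like levels in neurons, whereas in endothelial-like cells H2-D1 had 105 and 111 UMIs and H2-Q2 none.

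One or more H2-Q2 UMIs were found in 289 of 2039 neuron-like cells (14.2%, exact 95% interval 12.7% to 15.8%) and 286 of 2255 (12.7%, 11.3% to 14.1%). Of these 575 neurons, 383 held 1 UMI, 112 held 2 and 80 held 3 or more, up to 12 in 1 cell. In mature oligodendrocyte-like cells the share was 0.275% at a median of 4386 UMIs, against a median of 7938 UMIs in neuron-like cells. With every cell thinned to 3000 UMIs and shallower cells left out, the share was 5.92% of 4069 neuron-like cells (5.22% to 6.69%), against 0.194% of 1029 mature oligodendrocyte-like cells (0.0235% to 0.700%). The neuronal share was the higher one in both forms, which is a description, since H2-Q2 was chosen on its levels across these classes.

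The neurons with H2-Q2 used either fast transmitter. Sorted by the vesicular transporters, 221 of them (38.4%) were inhibitory, with Slc32a1 and no Slc17a6, and 275 (47.8%) were excitatory, with Slc17a6 and no Slc32a1; 44 held both and 35 neither. The inhibitory neurons had 17.1 and 18.0 CPM of H2-Q2, against 40.0 and 27.3 CPM in the excitatory neurons, and the fitted log2 ratio was −0.96. In shares, 10.4% and 10.7% of inhibitory neurons held a UMI, against 20.5% and 16.7% of excitatory neurons, and after thinning 4.87% and 4.46% against 9.56% and 6.82%. The level was thus lower in inhibitory than in excitatory neurons in each library and in each form.

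The best known peptide neurons of this area differed in H2-Q2. Neurons high in Pmch, the precursor of melanin-concentrating hormone, had 64.7 CPM (52.2 to 79.3) and 28.3 CPM (19.1 to 40.3). Neurons high in Hcrt, the precursor of the hypocretins, had 7.90 CPM (3.61 to 14.99) and 6.64 CPM (3.04 to 12.6). The intervals of these groups did not overlap in either library. A UMI was found in 40.7% and 26.2% of Pmch-high neurons, against 9.64% and 9.64% of Hcrt-high neurons, at median depths of 14166.5 and 12947 UMIs against 16101 and 18593. After thinning the Pmch-high shares were 9.09% and 1.85%, from 7 and 1 cells, and the Hcrt-high shares 4.11% and 1.37%, from 3 and 1 cells. The thinned shares of these groups therefore overlapped, and the difference rests on the levels in CPM. The other excitatory neurons had 41.5 and 32.2 CPM, above the Hcrt-high neurons in both libraries.

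**Figure D2:**
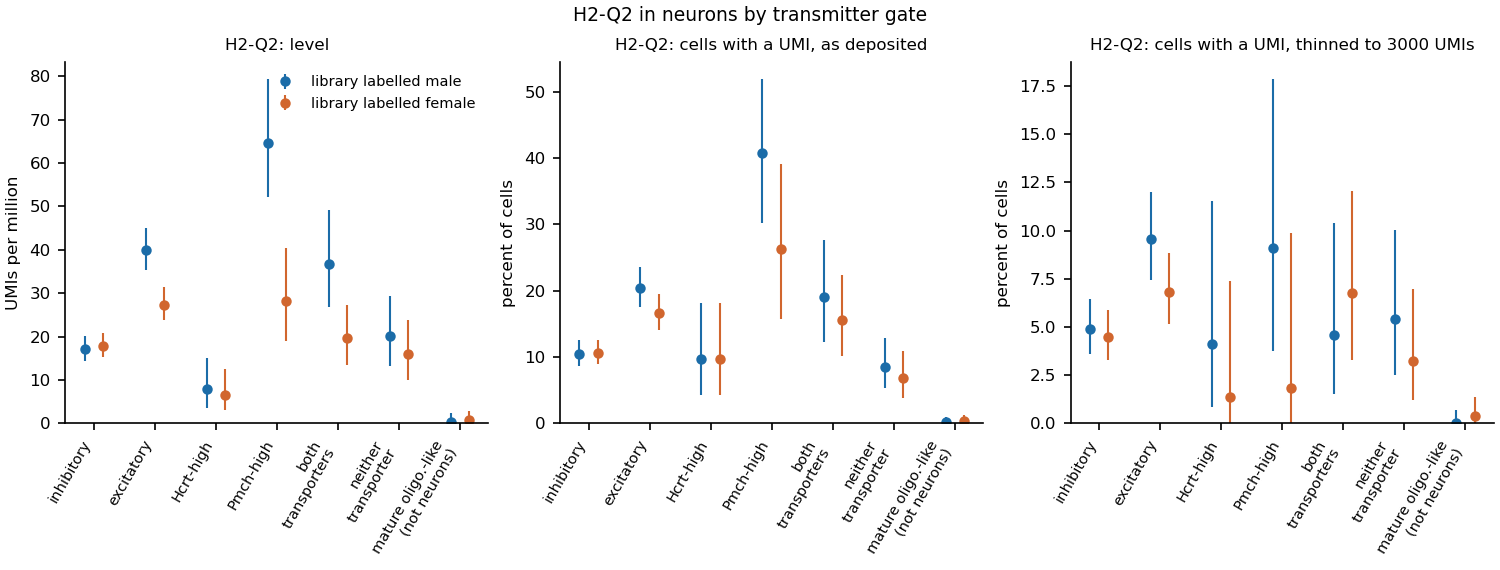
H2-Q2 in neurons sorted by transporter, by Hcrt and by Pmch, with mature oligodendrocyte-like cells for comparison; the panels show CPM with exact Poisson intervals, the percent of cells with a UMI as deposited, and the same after thinning to 3000 UMIs, both with exact Clopper-Pearson 95% intervals, 1 point per library. Inhibitory neurons stand at 17.1 and 18.0 CPM and excitatory neurons at 40.0 and 27.3 CPM, and Hcrt-high neurons are lowest of the neuron groups at 7.90 and 6.64 CPM.

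Among 34 neuron subclusters, H2-Q2 was concentrated in a few. Subcluster 18, led by Fezf1, Adcyap1, Nr5a1 and Tac1 and 87.9% excitatory, had 119 and 71 UMIs, or 142 CPM (117 to 170) and 84.8 CPM (66.2 to 107), and 51.0% of its 102 cells and 43.2% of its 88 cells held a UMI. Fezf1 and Nr5a1 are transcription factors known from the ventromedial hypothalamus, which borders the dissected area. Subcluster 6, led by Synpr, Lef1, Nos1 and Tac1 and 88.0% excitatory, had 60.4 and 96.1 CPM, and 27.8% and 43.0% of its cells held a UMI. Subcluster 29, led by Tac2, Esr1, Tac1 and Penk and 90.5% inhibitory, had 53.7 and 74.0 CPM, with shares of 38.7% and 46.5%. Subcluster 19, led by Pmch, Cartpt and Cbln1, had 65.2 and 26.2 CPM, with shares of 49.1% and 30.3% in cells whose median depth was 19430 and 25602 UMIs. After thinning the shares were 30% and 20.5% in subcluster 18, 13.8% and 28.0% in subcluster 6, 17.9% and 25.6% in subcluster 29, and 9.26% and 3.03% in subcluster 19. Subcluster 18 was above subcluster 6 in the male-labelled library and below it in the female-labelled library. The ranges of neighbours in this order overlapped, while those of subclusters 18 and 29 did not.

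These 4 subclusters held 49.8% of the neuronal H2-Q2 UMIs in 12.5% of the neurons. Below them came subcluster 5, led by Nos1 and Pmch, with 54.1 and 28.5 CPM, the inhibitory subcluster 22, led by Tac2 and Lhx1, with 44.1 and 35.0 CPM, and the inhibitory subcluster 23, led by Nts, Cartpt and Crh, with 41.8 and 30.1 CPM. At the other end, 8 subclusters with 354 cells had no H2-Q2 UMI in either library. Taken singly over both libraries, a count of 0 allows a level of up to 3.44 CPM in the largest of them, subcluster 25, and up to 16.7 CPM in subcluster 15. The level of 10.3 CPM in subcluster 16, led by Hcrt, lies below that limit in 3 of them, so the zeros do not show absence. They were led by Avp and Oxt, by Six3, by Nfix and Lhx6, by Sst, by Sst and Npy, by Prox1 and Pdyn, by Ebf3 and Nfix, and by Hdc. The 64 neurons with a UMI of Npw, the neuropeptide W precursor, also had none. The subclusters were built without H2-Q2, but from the other genes of the same cells, and are described without a test.

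**Figure D3:**
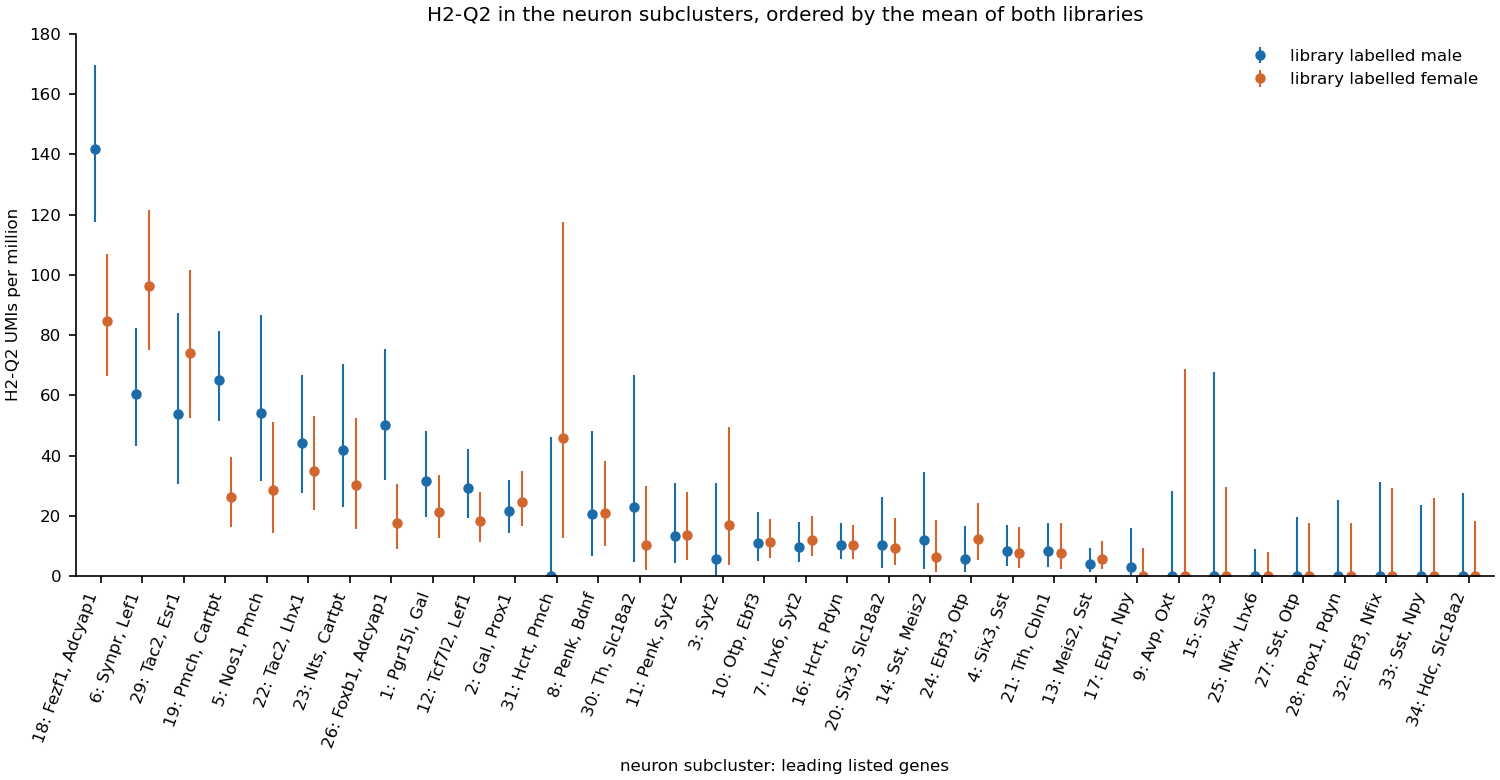
H2-Q2 level in each of 34 neuron subclusters, named by number and leading genes and ordered by the mean of both libraries, in CPM with exact 95% Poisson intervals, 1 point per library. Subcluster 18 stands highest at 142 and 84.8 CPM, followed by subclusters 6 and 29, and 8 subclusters at the far end have no UMI in either library.

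The other class I genes were spread differently over neurons. Over the 27 subclusters with at least 20 cells in each library, the highest mean level was 8.44 times the median subcluster's for H2-Q2, 6.78 times for H2-K1, 3.49 times for H2-T22, 3.22 times for H2-T23, 2.96 times for H2-D1 and 2.34 times for B2m. The figure for H2-K1 rests on few UMIs, with 3 and 3 in its highest subcluster. H2-T22 and B2m both had their highest mean among these in subcluster 16, led by Hcrt, with 42.9 and 53.0 CPM of H2-T22 and 46.1 and 53.7 CPM of B2m, where H2-Q2 had 10.3 and 10.3 CPM. H2-D1 was low there, with 14.3 and 10.3 CPM, and highest in subcluster 8, led by Penk, Bdnf and Otp, with 98.7 and 54.2 CPM. H2-D1 was also high in subcluster 23, with 53.8 and 60.2 CPM, and in subcluster 2, led by Gal, with 54.9 and 46.4 CPM. H2-T22 was next highest in subcluster 31, led by Hcrt, Pmch and Cartpt, with 25.1 and 57.3 CPM from 2 and 5 UMIs, and then in subclusters 18 (28.6 and 39.4 CPM) and 6 (28.7 and 35.7 CPM). Pearson's r of log2(CPM + 10) with H2-Q2 over these 27 subclusters was 0.43 and 0.35 for H2-D1, 0.0045 and 0.38 for H2-T22 and 0.03 and −0.36 for B2m, as a description of points that share their libraries.

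By transporter, H2-T22 had the widest gap of the 6. It had 6.83 and 9.03 CPM in inhibitory neurons, against 21.96 and 29.3 CPM in excitatory neurons, a fitted log2 ratio of −1.73. H2-D1 had 28.6 and 27.8 CPM in inhibitory neurons and 27.7 and 26.9 CPM in excitatory neurons. B2m had 26.6 and 18.8 CPM in inhibitory neurons, against 28.6 and 24.2 CPM in excitatory neurons. H2-T22 was thus lower in inhibitory neurons in both libraries beyond counting error, whereas the H2-D1 levels lay within 1 CPM of each other in each library. Hcrt-high neurons had 46.5 and 53.1 CPM of H2-T22 and 50.9 and 56.1 CPM of B2m, the highest of the sorted neuron groups for both, but 17.5 and 10.3 CPM of H2-D1, the lowest. Pmch-high neurons, high in H2-Q2, had 25.1 and 30.1 CPM of H2-T22, 32.7 and 32.0 CPM of B2m and 36.9 and 35.8 CPM of H2-D1.

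The gene whose level over those 27 subclusters was most like that of H2-Q2, of 6255 genes ranked by the lower of both libraries' r, was Prlr, the prolactin receptor, with r of 0.69 and 0.68. Tprgl, a presynaptic protein, followed with 0.55 and 0.53, then Zfhx3, a homeobox factor, with 0.52 and 0.53. The next were Dpysl3, Zfhx4, Eif2s1, Gabbr1 and Seh1l, with a lower r of 0.49 to 0.52. No r is given a p, since the subclusters share the 2 libraries and differ in depth, and the difference in rank between Prlr and the others was not tested.

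To ask which genes accompany H2-Q2, the 289 and 286 neurons with a UMI of it were summed per library and compared with the 1750 and 1969 without, with edgeR's quasi-likelihood test and the library as a block. The neurons with H2-Q2 were deeper, with median UMIs of 8590 and 9547, against 7548.5 and 7883 in those without, so the fit was repeated with all cells thinned to 3000 UMIs and sorted by what was left. Of 13411 genes tested, 310 were higher (2.31%) and 165 lower (1.23%) in neurons with H2-Q2, 3.54% in all at an adjusted p under 0.05. After thinning 80 of 11636 genes passed (0.688%), 50 of them higher (0.430%) and 30 lower (0.258%). Only 1 residual degree of freedom was left, since 4 sums enter the fit with the library as a block, and the cells come from only 2 pools of animals. The spread used was therefore mostly an estimate shared across genes, and the p-values do not measure the spread between animals. Without the library block 68 genes passed, 34 in each direction, and DESeq2 called 76.

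The neurons with H2-Q2 had more RNA of several peptide and receptor genes. Gpr83, a G protein-coupled receptor of peptide neurons, had 134 and 86.9 CPM with H2-Q2, against 37.8 and 35.3 CPM without (log2 fold change 1.60 ± 0.11 SE, edgeR adjusted p 1.11e-07; thinned 1.4997, adjusted p 5.70e-08). Cartpt, the precursor of the CART peptides, had 1420 and 1113 CPM with and 479 and 443 CPM without (1.47 ± 0.06; thinned 0.70, adjusted p 1.23e-11). Nts, the neurotensin precursor, had 192 and 181 CPM with and 84.9 and 73.5 CPM without (1.26 ± 0.07; thinned 0.89, adjusted p 8.28e-06). These rose in both libraries and at equal depth, as did Lypd1, with 295 and 189 CPM with H2-Q2 and 102 and 108 CPM without (1.21 ± 0.11; thinned 1.09, adjusted p 6.91e-11, though DESeq2 gave 0.124 without thinning). Of the 12 named genes that were higher, these 4 also passed after thinning, and 9 kept their sign.

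The other 8 named genes that were higher did not keep their call at equal depth. Pmch had 15033 and 8591 CPM with H2-Q2 and 4534 and 3015 CPM without (1.64 ± 0.06, adjusted p 3.94e-11), but after thinning it was lower in the neurons with H2-Q2 (−0.48, adjusted p 8.67e-10). The direction for Pmch thus turned with the depth setting. Tacr3, the neurokinin B receptor, which marks Pmch neurons here as a leading gene of subcluster 19, had 198 and 88.5 CPM with H2-Q2 and 43.4 and 36.2 CPM without (1.82 ± 0.14), and after thinning its log2 fold change was 0.25 (adjusted p 0.916). Igf1, Adra2a, Chodl, Ell2, Enpp2 and Zic1 had log2 fold changes of 1.24 to 1.63 and likewise did not pass after thinning. Subcluster 19, led by Pmch, was the deepest of the 4 subclusters highest in H2-Q2. The part of depth in these calls was not tested further.

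The 6 named genes that were lower in neurons with H2-Q2 passed in every form run, thinned, without the block and with DESeq2. Oxt, the oxytocin precursor, had 6.48 and 12.9 CPM with H2-Q2, against 83.3 and 298 CPM without (log2 fold change −4.27 ± 0.14 SE, edgeR adjusted p 2.85e-12). Avp, the vasopressin precursor, had 34.1 and 15.9 CPM with and 444 and 253 CPM without (−3.78 ± 0.09, adjusted p 7.45e-14). Both lead subcluster 9, which had no H2-Q2 UMI. Trh, the precursor of thyrotropin-releasing hormone, fell by 1.80 on the log2 scale, the transcription factor Meis2 by 1.78, Sst, the somatostatin precursor, by 1.60 and the transcription factor Otp by 1.29. Of 47 listed neuron-subtype genes tested, 15 were higher and 21 lower, against 2.31% higher and 1.23% lower of all genes. Their median log2 fold change was −0.40, against −0.0035 over all genes. The list was not counted after thinning, where Pmch, one of the 15, turned lower. Fezf1 had 22.8 and 22.9 CPM with H2-Q2, against 7.75 and 6.24 CPM without.

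**Figure D4:**
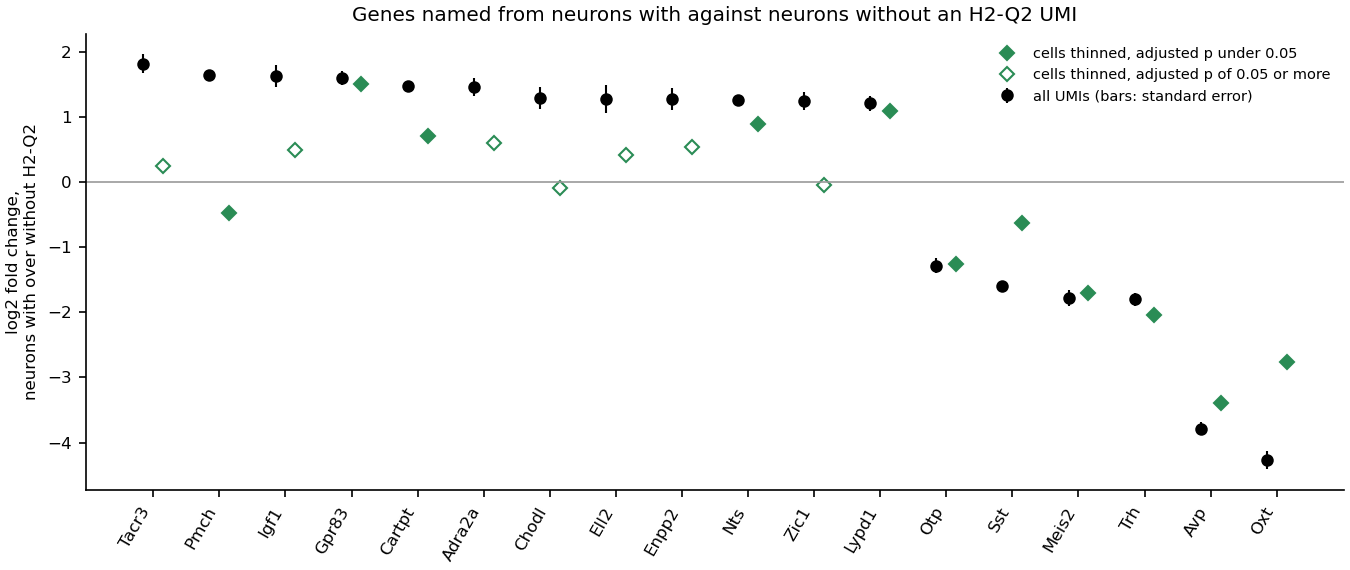
Log2 fold change of 18 named genes in neurons with an H2-Q2 UMI over neurons without one, with its SE, and beside it the value after all cells were thinned to 3000 UMIs (diamonds, filled where the adjusted p is under 0.05). Gpr83, Cartpt, Nts and Lypd1 stay higher after thinning, Pmch turns to −0.48, and Oxt, Avp, Trh, Meis2, Sst and Otp are lower in both.

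Within each transmitter class, a choice made after the data were seen, the accompanying genes differed. Among excitatory neurons 267 of 11966 genes passed (2.23%; 1.40% higher and 0.836% lower), and Nrgn, the postsynaptic protein neurogranin, had 276 and 179 CPM with H2-Q2 and 73.9 and 60.8 CPM without (log2 fold change 1.75 ± 0.11 SE, edgeR adjusted p 1.24e-11). Prlr had 133 and 125 CPM with and 50.1 and 57.6 CPM without (1.27 ± 0.12, adjusted p 4.89e-08). Among inhibitory neurons 178 of 12119 genes passed (1.47%; 0.949% higher and 0.520% lower), and Nts had 540 and 398 CPM with H2-Q2 and 135 and 125 CPM without (1.84 ± 0.09, adjusted p 9.05e-90). Cartpt had 1152 and 507 CPM with and 254 and 229 CPM without (1.70 ± 0.08). Tac1, the substance P precursor, was higher in both classes, by 0.98 among excitatory and 1.41 among inhibitory neurons on the log2 scale. Calcr, the calcitonin receptor, was lower by the fit in excitatory neurons (15.9 and 17.7 CPM with, 58.3 and 73.5 CPM without) and higher in inhibitory neurons (85.0 and 66.5 CPM with, 28.0 and 37.5 CPM without). Whether these effects differ between the classes was not tested as an interaction, and these fits were not repeated with thinned cells, with DESeq2 or without the block. Each fit left 1 residual degree of freedom, and among inhibitory neurons the spread was wholly an estimate shared across genes. A small p there, such as that of Nts, does not measure the spread between animals.

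Among the other class I genes, H2-D1 had 35.1 and 35.5 CPM in neurons with H2-Q2, against 28.9 and 24.96 CPM in neurons without (log2 ratio 0.41). Among inhibitory neurons it had 44.3 and 41.8 CPM with H2-Q2, against 26.7 and 25.9 CPM without (0.72). Among excitatory neurons it had 29.4 and 34.0 CPM with H2-Q2, against 27.1 and 25.4 CPM without (0.27). H2-D1 was thus higher with H2-Q2 in both libraries, with a smaller gap among excitatory neurons, and this was not tested. B2m had 32.4 and 21.6 CPM with H2-Q2, against 26.9 and 23.2 CPM without, so its direction differed between the libraries. H2-T22 had 16.0 and 21.6 CPM with H2-Q2 and 13.9 and 18.0 CPM without. Of the 82 listed genes of the class I pathway and its regulators, 44 could be tested and none passed with edgeR, against 3.54% of all genes; 9 had an unadjusted p under 0.05, DESeq2 called 0, and the smallest adjusted p was 0.0701. That no gene passed does not show the arms to be alike.

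The rest of the pathway was then counted by class against neuron-like cells, over 18 sums fitted together. Of the 82 listed genes, 42 passed the filter on low counts, which kept genes by their level in any class. A gene low in neuron-like cells could thus enter only if it was higher in another class. That holds for all genes tested, so the counts of higher genes and the medians are partly set by the filter. Of the 42 pathway genes tested, 30 were higher and 1 lower in endothelial-like cells (73.8%, against 54.3% of all 8183 genes tested, of which 26.7% were higher and 27.6% lower), with a median log2 fold change of 3.54 against −0.07 for all genes. In microglia-like cells 31 were higher and 1 lower (76.2%, against 37.8%, of which 17.4% higher and 20.4% lower), with a median of 3.37 against −0.27. In astrocyte-like cells 20 were higher and 3 lower (54.8%, against 50.9%, of which 23.8% higher and 27.0% lower). That total was near the background, but more of the calls were higher than among all genes, with a median of 1.29 against −0.13. In mature oligodendrocyte-like cells 6 were higher and 7 lower (31.0%, against 67.7%, of which 32.1% higher and 35.6% lower), with a median of −0.23 against −0.05. Thinning left 21, 22, 8 and 11 pathway genes called in these 4 classes.

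Peptide supply means the immunoproteasome subunits Psmb8, Psmb9 and Psmb10, the proteasome activators Psme1 and Psme2 and the trimming peptidase Erap1. In endothelial-like cells 3 of the 5 tested were higher and none lower, with a median log2 fold change of 1.02, and Psmb8 had 80.9 and 50.7 CPM, against 0.927 and 0.595 CPM in neuron-like cells (log2 fold change 6.61 ± 0.64 SE, edgeR adjusted p 6.73e-10). In microglia-like cells 4 were higher and none lower, with a median of 1.78, and Psmb8 reached 236 and 180 CPM (8.30 ± 0.57, adjusted p 1.01e-12). In astrocyte-like cells 1 was higher and 2 lower (median −1.22), and in mature oligodendrocyte-like cells none was higher and 2 were lower (median −0.38). Psmb10 had 37.9 and 48.2 CPM in astrocyte-like cells and 31.0 and 29.8 CPM in mature oligodendrocyte-like cells, against 118 and 118 CPM in neuron-like cells, and fell by 1.22 and 1.33 on the log2 scale. Psme1 was lower in mature oligodendrocyte-like cells, with 12.6 and 12.6 CPM against 78.0 and 74.0 CPM in neuron-like cells (−1.97 ± 0.21), and in astrocyte-like cells, with 31.0 and 25.1 CPM (−1.27 ± 0.32, adjusted p 0.00169; 0.285 after thinning).

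Transport and loading covers the TAP transporter, its tether tapasin (Tapbp) and the chaperones that fold the heavy chain. In endothelial-like cells 1 of the 4 tested was higher and 1 lower, with a median log2 fold change of −0.01; scaled by library totals 2 were lower. In microglia-like cells 2 were higher and 1 lower (median 0.56), in astrocyte-like cells 1 was higher (median 0.21), and in mature oligodendrocyte-like cells 3 were lower (median −0.55). Tapbp had 119 and 120 CPM in endothelial-like cells, against 32.8 and 31.5 CPM in neuron-like cells (2.16 ± 0.28, edgeR adjusted p 1.97e-07), and 158 and 87.4 CPM in microglia-like cells (2.18 ± 0.30). Mature oligodendrocyte-like cells had 12.2 and 9.17 CPM (−0.98 ± 0.24), so Tapbp ran in opposite directions in these classes. Canx, the general chaperone calnexin, had 256 and 258 CPM in endothelial-like cells, against 680 and 622 CPM in neuron-like cells (−1.07 ± 0.24, adjusted p 0.000488).

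Interferon receptors and interferon response genes were higher in endothelial-like and microglia-like cells. All 4 receptor genes were tested, and 3 were higher and none lower in each of these classes, with median log2 fold changes of 2.90 and 2.45. In astrocyte-like cells 3 were higher and 1 lower, and in mature oligodendrocyte-like cells 1 was lower. Ifnar2, a chain of the type I interferon receptor, had 251 and 96.8 CPM in endothelial-like cells, against 7.59 and 7.39 CPM in neuron-like cells (4.74 ± 0.33, edgeR adjusted p 7.32e-13). Ifngr1, a chain of the interferon-gamma receptor, had 377 and 159 CPM in microglia-like cells, against 9.16 and 8.98 CPM (5.12 ± 0.33, adjusted p 3.65e-13). Of 13 response genes tested, 12 were higher in endothelial-like cells, 9 in microglia-like cells and 9 in astrocyte-like cells (3 of 9 tested after thinning), none being lower, with medians of 6.72, 3.48 and 2.81. Ifitm3, which blocks viral fusion, had 796 and 761 CPM in endothelial-like cells, against 1.22 and 1.14 CPM in neuron-like cells (9.58 ± 0.39). Bst2, which tethers virions, had 309 and 206 CPM in microglia-like cells, against 2.26 and 1.34 CPM (7.43 ± 0.37). In mature oligodendrocyte-like cells 3 response genes were higher and 1 lower, among them Xaf1 with 28.9 and 25.6 CPM, against 1.68 and 1.64 CPM.

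Regulators, the transcription factors of the class I promoters, were higher for 5 of the 7 tested in endothelial-like cells, 4 in microglia-like cells, 3 in astrocyte-like cells and 3 in mature oligodendrocyte-like cells, and none was lower; scaled by library totals the last became 1 higher and 3 lower. Rela, an NF-kappa-B subunit, had 32.7 and 32.5 CPM in mature oligodendrocyte-like cells, against 9.10 and 13.1 CPM (2.17 ± 0.24). Of the other class I genes 3 were tested, and all 3 were higher in endothelial-like, microglia-like and astrocyte-like cells (median log2 fold changes of 6.90, 6.68 and 3.15) and none passed in mature oligodendrocyte-like cells. The same filter on low counts set which of them were tested. No receptor of class I could be tested. Fcgrt, the neonatal Fc receptor, which pairs with B2m but carries antibody and not peptide, had 443 and 240 CPM in endothelial-like cells, against 0.985 and 1.19 CPM in neuron-like cells (8.43 ± 0.34). H2-Q4, a neighbour of H2-Q2 in the Q region, had 68.1 and 64.6 CPM in endothelial-like cells, against 0.638 and 0.595 CPM in neuron-like cells (6.90 ± 0.71). Its order between these classes was thus that of the classical genes and not that of H2-Q2. Class II genes, which serve professional antigen presentation, were higher for 6 of 6 in microglia-like cells and 3 of 6 in endothelial-like cells, while DESeq2 and the thinned fit called 0 of those in endothelial-like cells. None of them passed in astrocyte-like or mature oligodendrocyte-like cells.

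**Figure D5:**
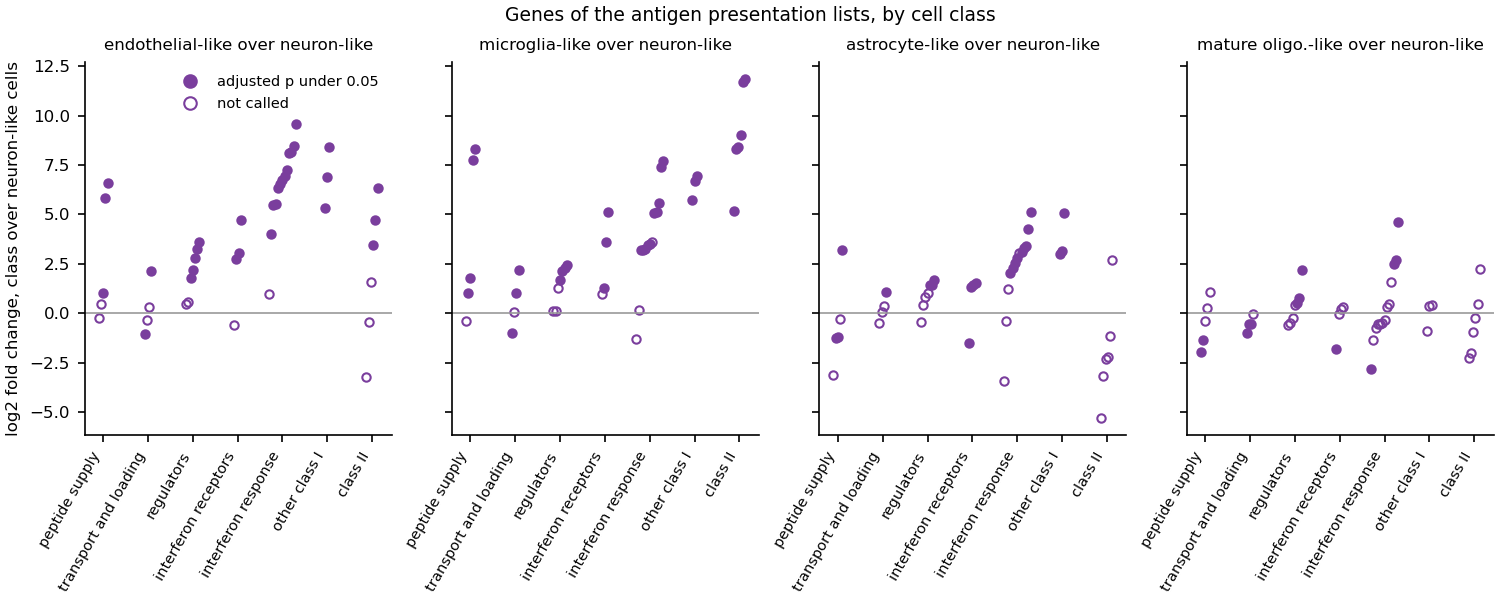
Log2 fold change over neuron-like cells of the tested genes of 7 pathway lists in endothelial-like, microglia-like, astrocyte-like and mature oligodendrocyte-like cells, 1 point per gene, filled where the edgeR adjusted p is under 0.05. Response genes and other class I genes lie far above 0 in endothelial-like and microglia-like cells, while loading genes lie on both sides of 0 there. Most lists lie near or below 0 in mature oligodendrocyte-like cells.

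Between neuron types, 18 of the 41 pathway genes tested passed, 4 higher and 14 lower in inhibitory than in excitatory neurons (43.9%, against 24.6% of all 13229 genes tested, of which 11.3% higher and 13.3% lower), but DESeq2 called 1 of them and so did the thinned fit. The loading genes were lower for 5 of the 6 tested and the response genes for 4 of the 9. Tapbp had 19.5 and 17.6 CPM in inhibitory neurons, against 45.4 and 44.1 CPM in excitatory neurons (log2 fold change −1.31 ± 0.10 SE, edgeR adjusted p 2.18e-29), and it passed with DESeq2 (2.13e-06), after thinning (0.000164) and without the block (8.99e-05). Pdia3, which folds class I heavy chains, had 134 and 141 CPM, against 166 and 170 CPM (−0.33 ± 0.05, adjusted p 2.09e-09), and did not pass with DESeq2 (0.0645) or after thinning (0.315). Tapbp was thus low in the inhibitory neurons together with H2-T22 and H2-Q2. This fit, too, left 1 residual degree of freedom, and its spread was almost wholly shared across genes. Its p-values therefore do not measure the spread between animals.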

How the data were processed

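Raw UMI counts per gene and cell barcode were deposited for each library, made with Cell Ranger 2.2.0 on mm10 (GRCm38), per the submitters' processing notes; no source used here gives the annotation release, the use of strand or the treatment of free RNA. Barcodes with fewer than 500 genes or over 20% mitochondrial counts were removed (163 and 163), then those with the highest Scrublet scores at 0.8% per 1000 barcodes (95 and 115; Scrublet's own threshold marked 56 and 11), which left 3181 and 3515 cells. Cells were clustered with scanpy 1.11.5 (2000 variable genes without the class I and pathway lists, other H2 genes, mitochondrial and sex-linked genes; 30 components, 15 neighbours, Leiden resolution 1, and 1.5 within neurons). Classes were named from marker lists, with limits on marker shares set after the clusters were seen, and 302 cells stayed unnamed. UMIs were summed per library and class of at least 10 cells, and tested with edgeR 4.0.16 (filterByExpr, TMM, quasi-likelihood test, library as block, Benjamini-Hochberg over all genes tested), with DESeq2 1.42.0 as an alternative (R 4.3.3). The block rests on the design, since each library supplies both arms. The procedure was tested on simulated data: of genes changed 2-fold, 52% were called between endothelial-like and neuron-like cells and 86% between neurons with and without H2-Q2. The simulation gave all genes a common spread and all sums the same mean profile, without a library effect. Genes with few expected counts were not among those changed, so these shares do not carry over to such genes or to genes of wider spread.

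Levels are summed UMIs per 1000000 (CPM) with exact Poisson intervals, and shares of cells carry exact Clopper-Pearson intervals; both cover counting error only, and PCR or free RNA is outside them. Excitatory neurons had Slc17a6 and no Slc32a1 UMI, inhibitory neurons the reverse, and Hcrt-high and Pmch-high neurons had over 0.3% of their UMIs from that gene. Thinning drew 3000 UMIs from each deeper cell. The 6 genes and all lists were chosen with earlier results of these data known, so the genes have no p. Named pathway genes were the called genes of each list with the largest change, up to 3 per direction, moving 1 way in both libraries and reaching 20 CPM in the higher group; for neurons with H2-Q2 they were the 12 highest and 6 lowest called genes with at least 50 CPM; those most like H2-Q2 were the 8 highest by correlation. Each library is a pool of animals and there is 1 per label, so no test between labels was possible. The p-values rest on a spread left after the library block and shared in part across genes, or wholly among inhibitory neurons with and without H2-Q2. They do not rest on the spread between animals. One listed gene is not reported here.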

Additional observations from a re-analysis of the deposited data

Results flagged for a closer look

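The 302 cells left without a name held class I counts although no comparison used them. Over both libraries they had 457 CPM of B2m, 128 CPM of H2-K1, 179 CPM of H2-D1, 44.4 CPM of H2-T22 and 10.8 CPM of H2-T23, each above the neuron-like level, and no H2-Q2 UMI. These cells carried markers of several classes: erythrocyte markers summed to 41397 and 63618 CPM, mature oligodendrocyte markers to 64796 and 55642 CPM and endothelial markers to 5680 and 6024 CPM. Their part in the class I counts was not tested.

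H2-D1 in mature oligodendrocyte-like against neuron-like cells had fold changes of opposite sign in the 2 libraries. Its log2 fold change was 0.27 in the male-labelled library and −2.07 in the female-labelled library, from 86 and 16 UMIs in mature oligodendrocyte-like cells. The ratio was 1.20 (0.946 to 1.51) in the male-labelled library, which includes equality, and 0.230 (0.131 to 0.378) in the female-labelled library. The difference between the libraries was not tested. B2m in the same cells, at 116 and 36.7 CPM, was above the neuron-like level in both libraries.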

How the results depend on the processing

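Of the values that answer a comparison, 109 stayed within their limits under the alternatives run and 27 moved. Pmch turned from higher to lower in neurons with H2-Q2 after thinning. Of the levels of single genes in single classes, 297 stayed and 92 moved. Thinning to 3000 UMIs left fewer counts and called 2773 genes in endothelial-like, 1424 in microglia-like, 2064 in astrocyte-like and 3693 in mature oligodendrocyte-like against neuron-like cells; stricter cell filters gave 2368 in astrocyte-like cells, and no filter on low counts gave 8463 in mature oligodendrocyte-like cells. For neurons with against without H2-Q2, DESeq2 called 76 genes, library totals 270, no count filter 742, no replicate block 68 (34 higher, 34 lower) and thinning 80. The added choices of excitatory or inhibitory neurons alone, made after seeing the data, called 267 and 178. Between inhibitory and excitatory neurons DESeq2 called 562 (187 higher, 375 lower), no replicate block 937 (340 higher, 597 lower) and thinning 1064, against 1495 higher and 1757 lower in the main test, and library totals gave 2009 higher and 1414 lower. Without the replicate block the 4 classes had 4390, 2974, 4027 and 5398 calls. Scaling by library totals shifted the median of all genes to −0.36, −0.52, −0.34 and −0.71 (log2) in endothelial-like, microglia-like, astrocyte-like and mature oligodendrocyte-like cells, with 1859 higher and 2790 lower, 1226 and 2346, 1682 and 2801, and 1619 and 4557, against 2187 and 2257, 1425 and 1666, 1950 and 2212, and 2625 and 2917; DESeq2 gave 1676 and 904 in microglia-like cells. Stricter cell filters gave 380 CPM of H2-D1 in endothelial-like cells, and 21.9 CPM of B2m, 1.98 of H2-K1 and 25.3 of H2-D1 in neuron-like cells. Mean shares with H2-Q2 after thinning were 4.67% of inhibitory, 8.19% of excitatory, 2.74% of Hcrt-high and 5.47% of Pmch-high neurons, and the Hcrt-high share was 10.9% with stricter filters, 9.53% without doublet removal and 9.14% with a limit of 1%. Apart from fewer counts after thinning, the cause of these shifts was not tested. Leaving out a library leaves 1 sum per arm and so a value without a test. Depth limits H2-Q2 in the small classes most: 3 counts are 6.64 CPM in endothelial-like and 8.06 CPM in microglia-like cells.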

Other observations

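Class II counts in microglia-like cells came from few cells. In the male-labelled and female-labelled libraries, 3 and 4 cells with 10 or more class II UMIs held 91.2% and 99.4% of the 274 and 980 class II UMIs of that class, up to 97 and 515 in 1 cell. The class II genes called higher in microglia-like cells therefore rest on these few cells.

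Cells of the endothelial-like class had no UMI of H2-Q2 but 68.1 and 64.6 CPM of its neighbour H2-Q4, while neuron-like cells had 27.8 and 21.5 CPM of H2-Q2 and 0.638 and 0.595 CPM of H2-Q4.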
